A study of Saccharomyces cerevisiae with 12 samples.

Results

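The regions upstream of 9 genes of galactose use in the yeast Saccharomyces cerevisiae were followed through a calling-card survey of transcription factors. The genes were GAL1, GAL10, GAL7, PGM2, GAL2, GCY1, GAL3, GAL80 and GAL4. An intergenic region was taken when a member was its left gene on the Crick strand or its right gene on the Watson strand, which gave 8 of the 4532 regions of the deposited tables. GAL1 and GAL10 are divergent and share 1 region, and the region upstream of GCY1 is also upstream of RIO1, an essential kinase gene of ribosome assembly. A region is named below by its left and right genes. The rule for taking a region used positions and strands and no insertion count.

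In a calling-card assay a factor is fused to Sir4, which steers the retrotransposon Ty5 to chromatin, so that insertions gather where the fusion sits on the genome. Here the fusion was at the C-terminus of the factor, Ty5 carried HIS3 behind a galactose promoter, and a clone spent 3 days on galactose, 2 days on rich medium and 3 days under selection for HIS3 and on 5-FOA. Each of the 12 groups had 1 library and no replicate, so every test compares the insertions of 1 library with those of a background set or of another library, not 1 condition with another. All cells made insertions while growing on the sugar that the member genes serve.

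All strains lacked SIR4 and were BY4741 unless stated. TEF1p-Tye7 gcr2D carried Tye7 under the TEF1 promoter and also lacked GCR2, and TEF1p-Tye7 was the same construct in cells with GCR2. Tye7, a basic helix-loop-helix (bHLH) factor of glycolytic genes, was expressed in cells that lacked TYE7. Cbf1 bHLH, Cbf1 bHLH-ZIP with Tye7 basic, Cbf1 bHLH-ZIP and Cbf1 itself, a bHLH factor of centromeres and methionine genes with a leucine zipper (ZIP), were expressed in cells that lacked CBF1. The form with the Tye7 basic region was in BY4742. NPAS2 bHLH with Cbf1 ZIP and NPAS2 bHLH, made from a mammalian circadian factor, were also in cells that lacked CBF1. Gcr1 and Gcr2, both activators of glycolytic genes, and Cst6, a basic leucine zipper factor of the ATF/CREB family, were in cells that lacked only SIR4. The Cbf1 forms and the NPAS2 forms are named as in the labels, which do not give the residues they span.

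Galactose enters yeast through the permease Gal2 and is turned into a glucose phosphate by the Leloir enzymes Gal1, Gal7 and Gal10 and by the phosphoglucomutase Pgm2. On galactose the sensor Gal3 frees the activator Gal4 from its inhibitor Gal80, and Gal4 then switches on the structural genes, GCY1 among them, as well as GAL3 and GAL80. The promoters of the structural genes lose nucleosomes and become strongly active under this induction. None of the factors in the survey is known as a core regulator of the pathway.

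Depth ran from 2415 intergenic insertions for NPAS2 bHLH to 37782 for Cst6. The background held 66271 intergenic insertions in set A, which serves 9 libraries, and 53808 in set B, which serves Gcr1, Gcr2 and Cst6. Results against background within a set thus share their background counts. Shares below are percentages of all intergenic insertions in the library or background set, and their exact 95% intervals cover counting error only. The insertions were read after PCR, and the labels name no molecular identifiers, so they may not all be independent molecules.

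In the background sets most of the galactose regions were used more than a typical region. RIO1-GCY1 held 84 insertions in set A and 72 in set B, ranked 78 and 71 of the 4532 regions, and had 0.127% and 0.134% of the intergenic insertions against a mean of 0.0221% over all regions. EMP46-GAL2, upstream of the permease gene GAL2, followed with 73 and 47 insertions, and GAL7-GAL10 with 42 and 37. Per kilobase, the density was highest in set A at SUR7-GAL80, a region of 285 bp, with 102 insertions per kb. It was lowest at GAL4-RBD2, a region of 2154 bp that may span a further gene, with 12.1 insertions per kb. Over all regions the density was 18.2 per kb. The sets differed most at TRP1-GAL3, upstream of the sensor gene GAL3, with 0.0241% (0.0138 to 0.0392) in set A and 0.0650% (0.0453 to 0.0905) in set B. Intervals of the sets did not overlap there, which touches each ratio for GAL3 below.

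Against background, 1 of the 96 pairs of a region and a library was called higher and 10 were called lower. Over all regions and libraries tested, 3.23% were called higher and 8.05% lower. Calls rest on Fisher's exact test, two-sided, with Benjamini-Hochberg adjustment over every region holding 10 or more insertions, and needed both an adjusted p below 0.05 and a 2-fold difference in share. In 80 of the 96 pairs the member's share lay below the background share, and in 21 the region held 0 insertions. Over all regions tested, 85.9% had a log2 ratio below 0 in Cst6, 83.8% in Cbf1, 82.1% in Gcr1 and 80.0% in Gcr2. The lowest such share was 9.96%, in NPAS2 bHLH. These ratios add 1 insertion to each count, so they are not the same measure as the 80 of 96. In the NPAS2 libraries the background share gave at most 3.62 insertions per member region. The single region called higher was RIO1-GCY1 with Cst6. The 10 lower calls were spread over Cbf1 with 5, Cst6 with 3, and Gcr2 and Cbf1 bHLH-ZIP with 1 each. At an unadjusted p under 0.05, 3 pairs were higher and 20 lower. The share of all regions at that threshold was not counted, so no excess is read from these 2 numbers. A bound region is one with 5 or more insertions and an adjusted Poisson p of the authors below 0.01. With shares taken over regions not bound in the library, 0 of the lower calls were left, and with positions within 5 bp merged 0 calls of either kind were left.

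The shares of all regions called higher and lower differed between libraries. They were 2.33% and 0.0486% in TEF1p-Tye7 gcr2D, 1.22% and 0.0489% in TEF1p-Tye7, 0.767% and 0% in Tye7, 2.75% and 0.208% in Cbf1 bHLH, and 3.44% and 0.492% in Cbf1 bHLH-ZIP with Tye7 basic. Cbf1 bHLH-ZIP had 4.20% and 2.49%, Cbf1 7.37% and 31.7%, NPAS2 bHLH with Cbf1 ZIP 2.66% and 0%, and NPAS2 bHLH 0.0496% and 0%. Gcr1 had 3.40% and 5.40%, Gcr2 3.10% and 7.04%, and Cst6 7.81% and 52.5%. Lower calls were thus frequent over the genome in Cbf1 and Cst6, the libraries that hold 8 of the 10 lower calls among the galactose genes.

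**Figure D1:**
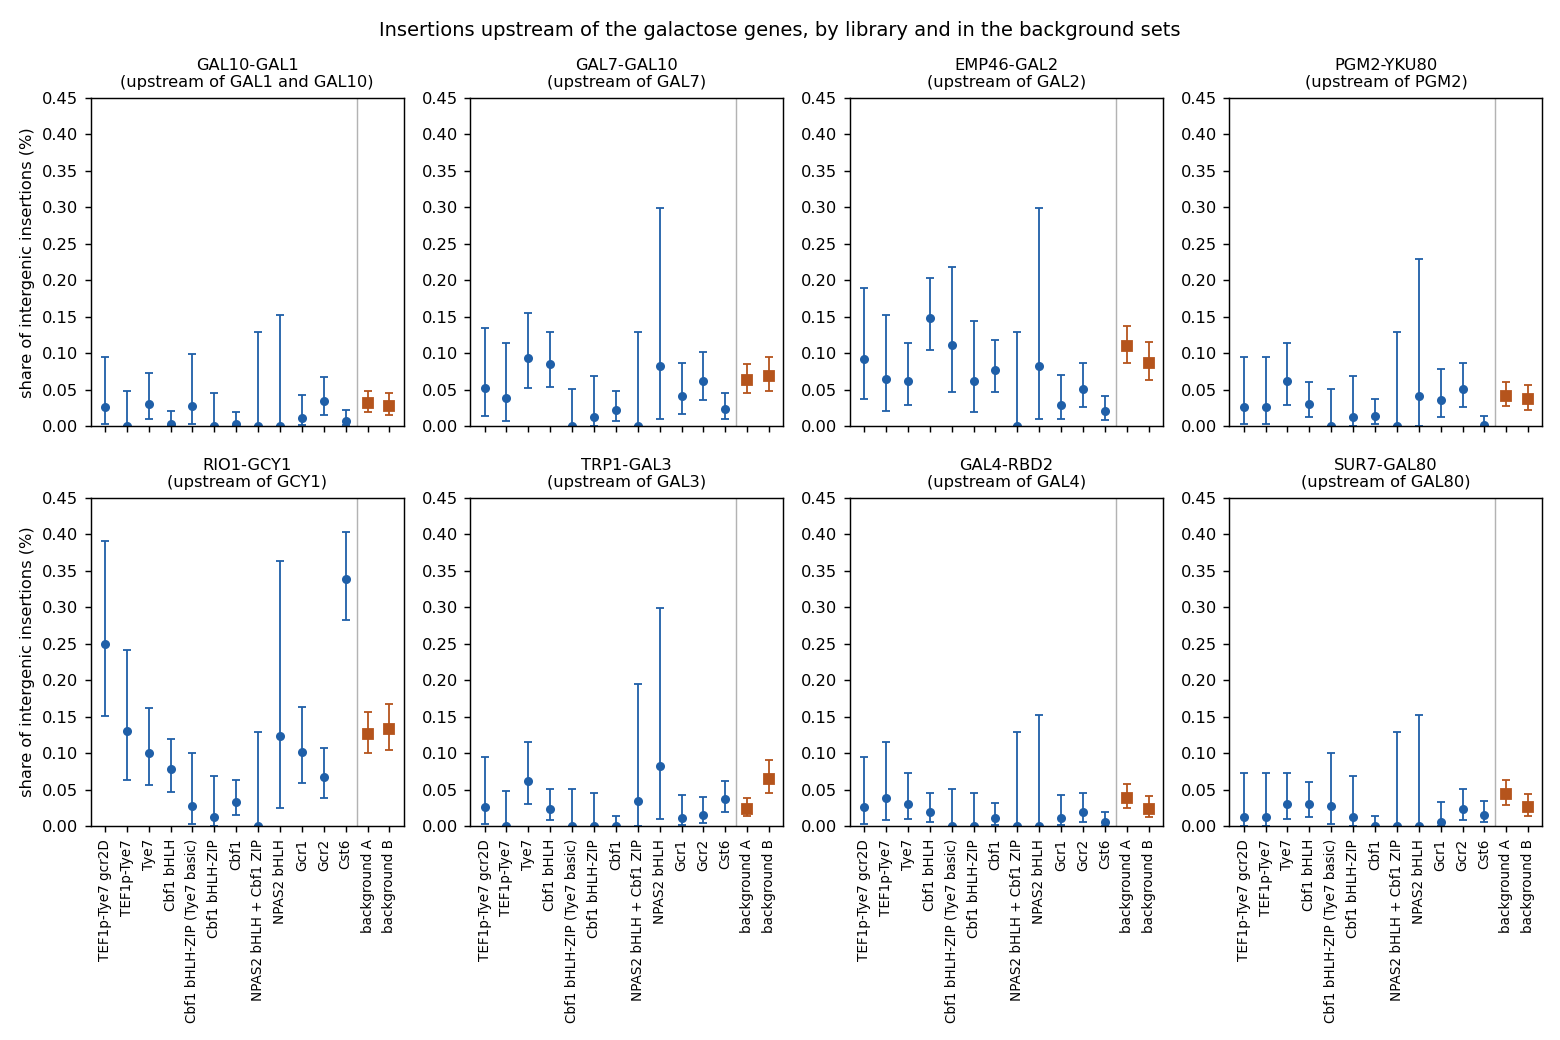
Share of intergenic insertions (%, vertical axis) in each of the 8 regions for the 12 libraries (circles) and for background sets A and B (squares), with exact 95% intervals of counting error. RIO1-GCY1 in the Cst6 library, at 0.339%, is the highest point, and most other circles lie below the squares of the same panel.

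**Figure D2:**
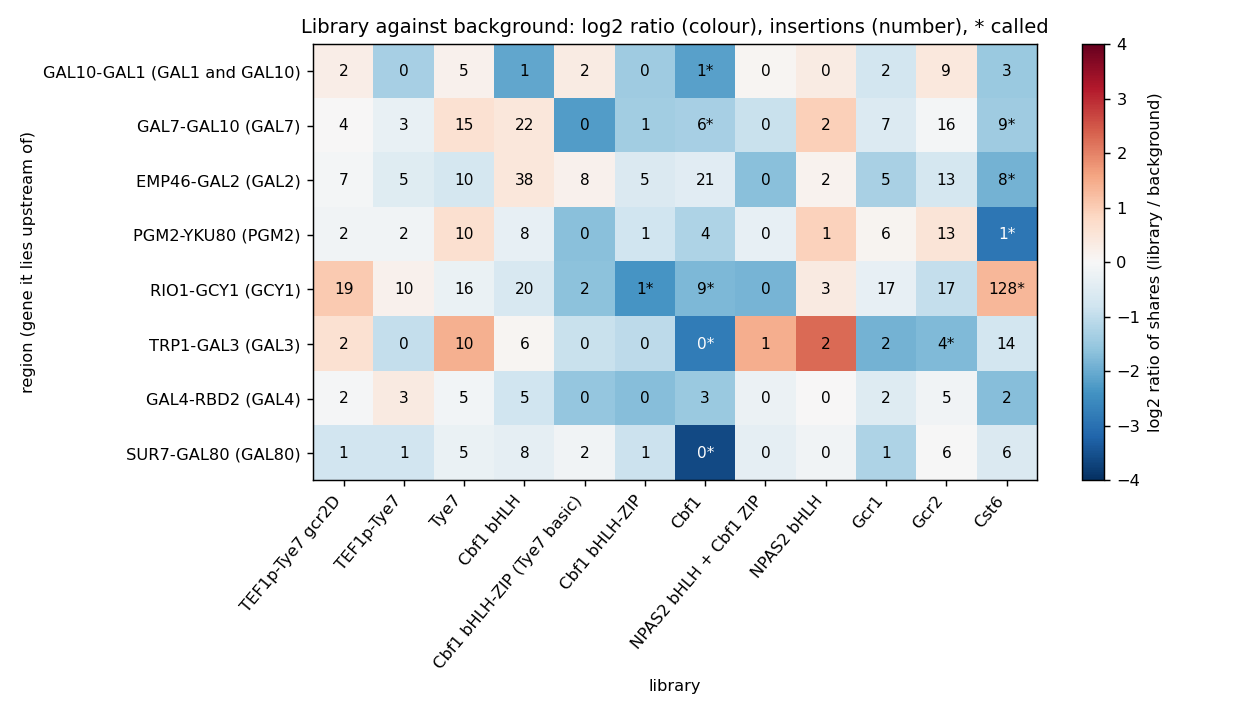
Each cell gives the insertions of a library (columns) in a region (rows), coloured by the log2 ratio of the library's share over its background share with 1 insertion added to each count, and marked with a star where called. The 1 star on red is RIO1-GCY1 with Cst6 and the other 10 stars lie on blue.

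GCY1, which encodes an aldo-keto reductase that is induced on galactose through Gal4, had the clearest result. Its upstream region RIO1-GCY1 lies on chromosome 15 from 550247 to 551115, in the coordinates of the deposited tables, and spans 869 bp. It held 19 insertions in TEF1p-Tye7 gcr2D, 10 in TEF1p-Tye7, 16 in Tye7, 20 in Cbf1 bHLH, 2 in Cbf1 bHLH-ZIP with Tye7 basic, 1 in Cbf1 bHLH-ZIP, 9 in Cbf1, 0 in NPAS2 bHLH with Cbf1 ZIP, 3 in NPAS2 bHLH, 17 in Gcr1, 17 in Gcr2 and 128 in Cst6. The Cst6 library stood far above the others in number, and alone it gave more than the other 11 libraries, which held 114 together.

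As a share, RIO1-GCY1 took 0.339% (0.283 to 0.403) of the Cst6 insertions against 0.134% (0.105 to 0.168) of background set B. That is 128 insertions where the background share gives 50.6, a ratio of 2.53 (1.88 to 3.43), with an adjusted p of 2.33e-09 by Fisher's exact test. Among all regions tested in the Cst6 library 7.81% were called higher, and RIO1-GCY1 was 1 of 147 such regions. RIO1-GCY1 was the 48th region of that library by insertions and met the condition for bound regions, which no other member region met in any library. The 3 runs of the Cst6 list, blocks in which the chromosome order starts again and which the labels do not name, gave 0.339%, 0.322% and 0.346%, all above the background share.

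TEF1p-Tye7 gcr2D had the second highest share in RIO1-GCY1, 0.250% (0.151 to 0.391) against 0.127% in background set A. The ratio was 1.97 (1.13 to 3.28), and with an adjusted p of 0.332 by Fisher's exact test it was not called, although it was called when shares were taken over regions not bound. Its 3 runs ran from 0.109% to 0.467%, on both sides of the background. Then came TEF1p-Tye7 with 0.131%, NPAS2 bHLH with 0.124%, Gcr1 with 0.102%, Tye7 with 0.100%, Cbf1 bHLH with 0.0779% and Gcr2 with 0.0670%, and neighbours in this order had overlapping intervals throughout. The interval of Cst6 overlapped with those of TEF1p-Tye7 gcr2D and NPAS2 bHLH and lay above those of the other 9 libraries.

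At the low end, RIO1-GCY1 was called lower in Cbf1, with 0.0332% (0.0152 to 0.0629) against 0.127% in background, a ratio of 0.262 (0.116 to 0.521) and an adjusted p of 1.06e-04 by Fisher's exact test. It was also called lower in Cbf1 bHLH-ZIP, where 1 insertion gave 0.0125% and a ratio of 0.0983 (0.00246 to 0.563), with an adjusted p of 0.0229 by the same exact test. The share called lower over all regions was 31.7% in Cbf1 and 2.49% in Cbf1 bHLH-ZIP. GCY1 was thus the member whose region took both the higher call and 2 of the lower calls.

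Within RIO1-GCY1 the Cst6 insertions lay in another place than most of the rest. Distances are counted from the GCY1 end of the region, and the stretch of 100 bp that was fullest in Cst6 was chosen after its values were seen. In Cst6, 80 of 128 insertions, 62.5% (53.5 to 70.9), lay 200 to 299 bp upstream, while in the other 11 libraries 23 of 114, 20.2% (13.2 to 28.7), lay there. The median distance was 268 bp in Cst6, and it was 493 bp in TEF1p-Tye7 gcr2D, 470 bp in TEF1p-Tye7, 449 bp in Tye7, 376 bp in Cbf1 bHLH, 513 bp in Cbf1, 468 bp in Gcr1 and 301 bp in Gcr2. Pooled, the other 11 libraries had their fullest stretch of 100 bp at 400 to 499 bp upstream, with 36 insertions, while Gcr2 by itself was fullest at 200 to 299 bp, with 6 of 17. Outside its own fullest 100 bp, Cst6 had 48 insertions in the region, or 0.127% of its total.

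The 80 insertions of Cst6 between 200 and 299 bp occupied 40 distinct positions, and 20 of these were found in more than 1 run. The share of the insertions of RIO1-GCY1 that lay there was 75.0%, 76.7% and 52.7% in the 3 runs. When insertions within 5 bp of each other were counted as 1, only 21 of the 128 insertions were left, or 16.4%, against 34.2% left over the whole library. The share was then 0.162% against 0.134% in background, which was not merged, with a ratio of 1.21 and an adjusted p of 0.750 by Fisher's exact test, so the call ended. Whether nearby positions are separate insertions was not tested.

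**Figure D3:**
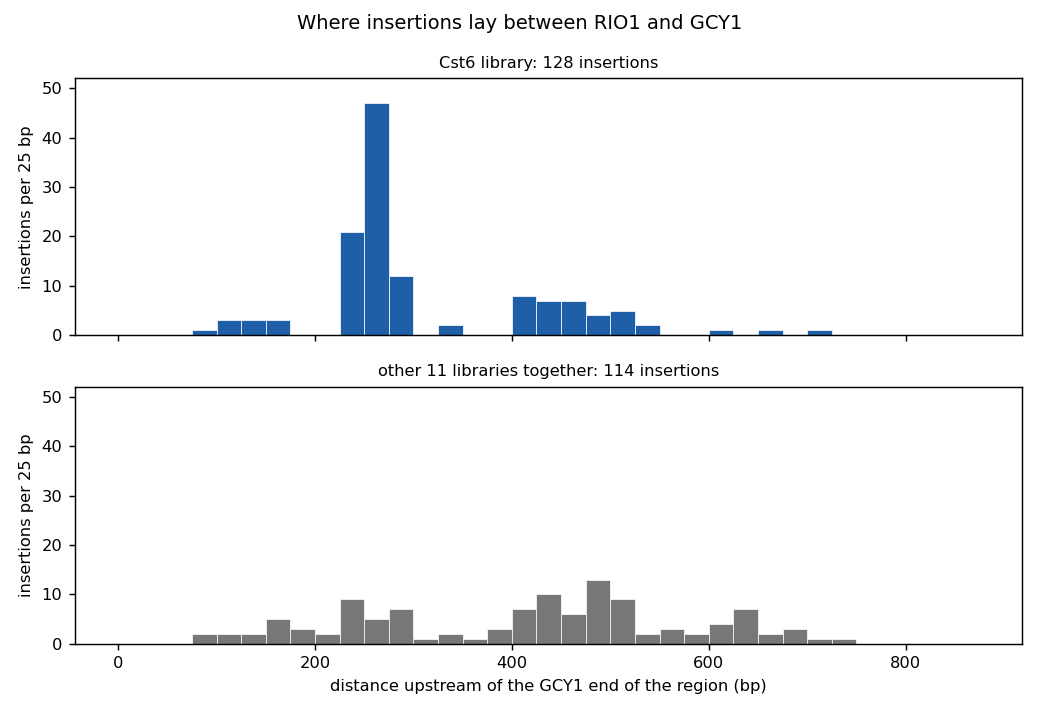
Insertions per 25 bp (vertical axis) by distance upstream of the GCY1 end of RIO1-GCY1 (bp, horizontal axis), for the Cst6 library above and the other 11 libraries together below. In Cst6, 80 of 128 insertions lie 200 to 299 bp upstream, and in the other libraries 23 of 114 do.

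The 3 regions whose ratio of share over background share followed RIO1-GCY1 most closely over the 12 libraries were PXA2-MTR2 with a Pearson r of 0.948, SSH1-APE3 with 0.921 and ADH4-ZRT1 with 0.904, of 636 regions with at least 50 insertions. Without Cst6 the values were 0.930, 0.893 and 0.873. The log2 ratios compared share their libraries, their depth and their background sets, so these values are a description.

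Of the Leloir genes, GAL7, which encodes the uridylyltransferase, had a region with a wide spread between libraries. GAL7-GAL10, on chromosome 2 from 275527 to 276253, held 4 insertions in TEF1p-Tye7 gcr2D, 3 in TEF1p-Tye7, 15 in Tye7, 22 in Cbf1 bHLH, 0 in Cbf1 bHLH-ZIP with Tye7 basic, 1 in Cbf1 bHLH-ZIP, 6 in Cbf1, 0 in NPAS2 bHLH with Cbf1 ZIP, 2 in NPAS2 bHLH, 7 in Gcr1, 16 in Gcr2 and 9 in Cst6. Shares were highest in Tye7, with 0.0938% against 0.0634% in background, and in Cbf1 bHLH, with 0.0856%. Neither was called. The region was called lower in Cbf1, with 0.0221% and a ratio of 0.349 (0.121 to 0.825) at an adjusted p of 0.0309, and in Cst6, with 0.0238% against 0.0688% and a ratio of 0.346 (0.147 to 0.731) at an adjusted p of 0.00638, both by Fisher's exact test. In Cst6, 52.5% of all regions tested were called lower, so a lower share there was the common case.

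GAL1, the galactokinase gene, and GAL10, the epimerase gene, share the divergent region GAL10-GAL1, on chromosome 2 from 278352 to 279021. It drew few insertions in every library. There were 2 in TEF1p-Tye7 gcr2D, 0 in TEF1p-Tye7, 5 in Tye7, 1 in Cbf1 bHLH, 2 in Cbf1 bHLH-ZIP with Tye7 basic, 0 in Cbf1 bHLH-ZIP, 1 in Cbf1, 0 in both NPAS2 libraries, 2 in Gcr1, 9 in Gcr2 and 3 in Cst6, against 21 in background set A and 15 in set B. Only the 9 insertions of Gcr2, 0.0355% against 0.0279%, lay above background, with a ratio of 1.27 and an adjusted p of 0.826 by Fisher's exact test. In Cbf1 the single insertion gave 0.00368% against 0.0317%, a ratio of 0.116 (0.00281 to 0.723), and the region was called lower at an adjusted p of 0.0263 by the exact test. The Ty5 plasmid carries the same promoter, and how insertions into it would have been placed was not tested.

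PGM2, which encodes the major phosphoglucomutase, lies next to PGM2-YKU80, on chromosome 13 from 477605 to 478300. The region had 2 insertions in TEF1p-Tye7 gcr2D, 2 in TEF1p-Tye7, 10 in Tye7, 8 in Cbf1 bHLH, 0 in Cbf1 bHLH-ZIP with Tye7 basic, 1 in Cbf1 bHLH-ZIP, 4 in Cbf1, 0 in NPAS2 bHLH with Cbf1 ZIP, 1 in NPAS2 bHLH, 6 in Gcr1, 13 in Gcr2 and 1 in Cst6. Tye7, with 0.0625%, and Gcr2, with 0.0512%, were above their background of 0.0423% and 0.0372%, and neither was called. In Cst6, the deepest library, 1 insertion gave 0.00265% against 0.0372%, a ratio of 0.0712 (0.00172 to 0.445) at an adjusted p of 0.00173 by Fisher's exact test. Among the called pairs with at least 1 insertion this was the lowest ratio.

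GAL2, the permease gene, has the second most used member region, EMP46-GAL2, on chromosome 12 from 289251 to 290213. It held 7 insertions in TEF1p-Tye7 gcr2D, 5 in TEF1p-Tye7, 10 in Tye7, 38 in Cbf1 bHLH, 8 in Cbf1 bHLH-ZIP with Tye7 basic, 5 in Cbf1 bHLH-ZIP, 21 in Cbf1, 0 in NPAS2 bHLH with Cbf1 ZIP, 2 in NPAS2 bHLH, 5 in Gcr1, 13 in Gcr2 and 8 in Cst6. Cbf1 bHLH was highest, with 0.148% (0.105 to 0.203) against 0.110% in background, and was not called at an adjusted p of 0.718 by Fisher's exact test. The 21 insertions of Cbf1 gave 0.0774%, and EMP46-GAL2 was 1 of the 3 member regions that were not called lower in that library. Cst6 was called lower with 0.0212% against 0.0873%, a ratio of 0.242 (0.0989 to 0.518) at an adjusted p of 1.78e-04 by the exact test. Beside the 52.5% of all regions called lower in it, the Cst6 library had 3 structural genes called lower and GCY1 called higher, and the other 7 member regions without RIO1-GCY1 took 0.114% of its insertions against 0.336% of background, a ratio of 0.338.

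Of the regulators, GAL3, the sensor gene, varied most. TRP1-GAL3, on chromosome 4 from 462514 to 463432, held 2 insertions in TEF1p-Tye7 gcr2D, 0 in TEF1p-Tye7, 10 in Tye7, 6 in Cbf1 bHLH, 0 in Cbf1 bHLH-ZIP with Tye7 basic, 0 in Cbf1 bHLH-ZIP, 0 in Cbf1, 1 in NPAS2 bHLH with Cbf1 ZIP, 2 in NPAS2 bHLH, 2 in Gcr1, 4 in Gcr2 and 14 in Cst6. Tye7 had 0.0625% (0.0300 to 0.115) against 0.0241%, a ratio of 2.59 (1.05 to 6.07), and was not called at an adjusted p of 0.611 by Fisher's exact test. Cbf1 had 0 of 27141 insertions. With 3 insertions in place of 0 the share would be 0.0111%, 2.18-fold lower than background. The exact interval of the ratio ended at 0.633. It was called lower at an adjusted p of 0.0182. Gcr2 was called lower with 0.0158% against 0.0650% in set B, a ratio of 0.242 (0.0626 to 0.678) at an adjusted p of 0.0338 by the exact test, beside 7.04% of all regions called lower in that library. Against set A, whose share of TRP1-GAL3 is smaller, Gcr2 was not called.

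GAL80, which encodes the inhibitor of Gal4, lies next to SUR7-GAL80, on chromosome 13 from 171310 to 171594. No library lay above its background share there. The highest shares were 0.0312% in Tye7 and 0.0311% in Cbf1 bHLH, against 0.0438% in set A. Cbf1 had 0 insertions and was called lower at an adjusted p of 7.67e-04 by Fisher's exact test. With 3 insertions in place of 0 the share would be 3.96-fold lower than background, and the exact interval of the ratio ended at 0.331.

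GAL4, the activator gene itself, lies next to the longest member region, GAL4-RBD2, on chromosome 16 from 82356 to 84509. This region had the fewest insertions per kb. The identifiers of its flanking genes, YPL248C and YPL246C, are not consecutive, so the region may span a further gene, which was not checked. GAL4-RBD2 thus may not be promoter sequence throughout. It held from 0 to 5 insertions per library, with a median share of 0.0116% and the highest share, 0.0394%, in TEF1p-Tye7 against 0.0392% in background. It was the 1 member region with no call in any library. Cbf1, with 3 insertions and an adjusted p of 0.0561, and Cst6, with 2 insertions and an adjusted p of 0.0518, came nearest by Fisher's exact test.

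Summed over the 8 regions, the galactose genes took 0.514% (0.366 to 0.702) of the insertions of TEF1p-Tye7 gcr2D, 0.315% of TEF1p-Tye7, 0.475% (0.374 to 0.594) of Tye7, 0.420% of Cbf1 bHLH, 0.194% of Cbf1 bHLH-ZIP with Tye7 basic, 0.112% of Cbf1 bHLH-ZIP and 0.162% (0.118 to 0.218) of Cbf1, against 0.481% of background set A. The NPAS2 libraries gave 0.0350% with the Cbf1 ZIP, from 1 insertion, and 0.414% without it, from 10. Gcr1 had 0.252%, Gcr2 0.327% and Cst6 0.453%, against 0.470% of set B. The 4 lowest sums were those of Cbf1, of both Cbf1 bHLH-ZIP forms and of NPAS2 bHLH with Cbf1 ZIP.

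The median log2 ratio over the 8 regions was -1.63 in Cbf1 beside -1.30 over all regions tested, -1.45 beside -1.68 in Cst6, -0.11 beside -0.68 in Gcr2 and 0.03 beside -0.16 in Tye7. It was -1.21 beside -0.76 in Cbf1 bHLH-ZIP and -0.01 beside -0.00 in TEF1p-Tye7 gcr2D. In TEF1p-Tye7 it was -0.40 beside -0.40, in Cbf1 bHLH -0.35 beside -0.05, in Cbf1 bHLH-ZIP with Tye7 basic -1.23 beside -0.50, and in Gcr1 -0.64 beside -0.89. The NPAS2 libraries had -0.35 beside 0.36 with the Cbf1 ZIP and 0.34 beside 0.97 without it. In Cbf1, Gcr1, Cst6, TEF1p-Tye7 and both Cbf1 bHLH-ZIP forms low values of the galactose genes thus stood beside low values of most regions. In Gcr2 the galactose median lay nearer 0 than that of all regions. In NPAS2 bHLH with Cbf1 ZIP 6 of the 8 lay below 0 beside 35.3% of all regions, but the 8 regions held 1 insertion together. With 1 insertion added, the sign at a region with 0 insertions follows from its background count alone, so nothing is drawn from this contrast. In Cst6, 10818 of the 37782 intergenic insertions lay outside the bound regions, and taking shares over the unbound regions moved the log2 ratios by 1.65 in Cst6, 1.51 in Cbf1 and 1.64 in Cbf1 bHLH-ZIP. The median of the galactose regions was then 0.19 in Cst6, beside -0.04 over all regions tested. It was -0.12 beside 0.21 in Cbf1 and 0.42 beside 0.87 in Cbf1 bHLH-ZIP. Its sign thus turned in Cst6 and Cbf1 bHLH-ZIP and not in Cbf1. In Cbf1 and Cbf1 bHLH-ZIP it lay below the median of all regions.

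The 7 pairs of libraries that differ by a factor, a domain, a promoter or a deletion were then compared. Of 56 pairs of a member region with such a comparison, 18 had enough insertions to test. In all, 4 were called higher and 0 lower, beside 12.6% higher and 8.84% lower over all regions tested. At an unadjusted p under 0.05, 6 were higher and 1 lower by Fisher's exact test, and the share of all regions at that threshold was not counted.

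All 4 calls fell in Tye7 against Cbf1, the comparison of the full-length factors, which also differ in the deleted gene. Of 5 member regions tested, those of GAL7, PGM2, GCY1 and GAL3 were higher in Tye7, beside 27.0% of all 759 regions higher and 19.9% lower. GAL7-GAL10 had 15 insertions in Tye7 against 6 in Cbf1, or 0.0938% against 0.0221%, a ratio of 4.24 (1.55 to 13.3) at an adjusted p of 0.00769 by Fisher's exact test. PGM2-YKU80 had 10 against 4, a ratio of 4.24 (1.22 to 18.5) at an adjusted p of 0.0265. RIO1-GCY1 had 16 against 9, a ratio of 3.02 (1.25 to 7.74) at an adjusted p of 0.0186. TRP1-GAL3 had 10 in Tye7 against 0 in Cbf1, at an adjusted p of 2.94e-04 by the exact test. The exact interval of the ratio began at 3.80, and with 3 insertions in place of 0 the ratio would be 5.65.

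GAL2 did not share in this. EMP46-GAL2 had 10 insertions in Tye7 against 21 in Cbf1, or 0.0625% against 0.0774%, a ratio of 0.808 (0.340 to 1.79) at an adjusted p of 0.783 by the exact test. Shares were also taken over regions bound by neither factor, where the log2 ratios of all regions moved by -1.17. TRP1-GAL3 was then the 1 member region still called higher in Tye7, and EMP46-GAL2 was called lower. Of the 759 regions tested, 31 were called higher and 225 lower under this scaling. The runs of Tye7, 6 in number, and those of Cbf1, 4 in number, overlapped in share for each of the 4 called regions.

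**Figure D4:**
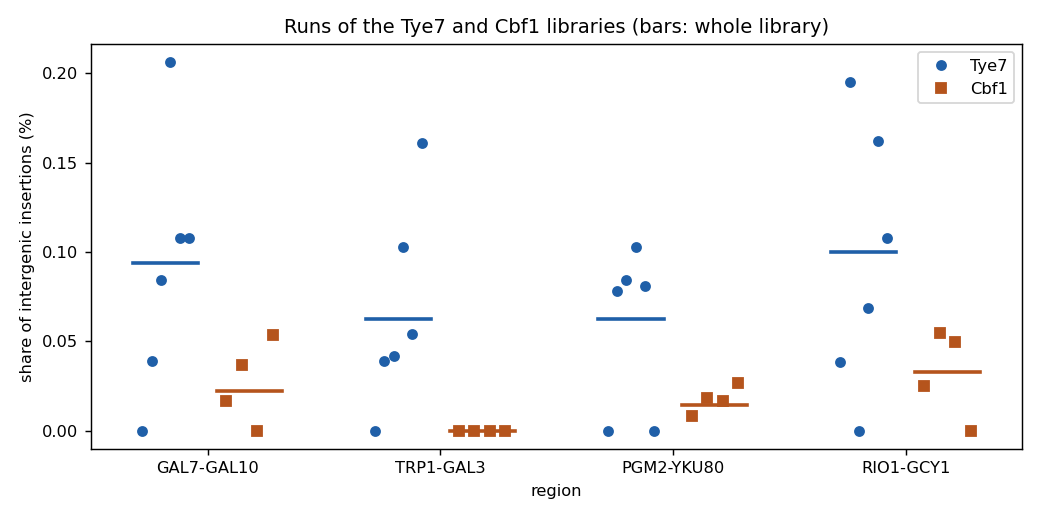
Share of intergenic insertions (%, vertical axis) in the runs of the Tye7 library (circles) and of the Cbf1 library (squares) for the 4 regions called higher in Tye7, with a bar at the share of the whole library. The bars of Tye7 lie above those of Cbf1 in each region, and the ranges of the runs overlap in each region.

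The other comparisons gave no call among the galactose genes. Over all regions, 11.9% were called higher and 5.93% lower in TEF1p-Tye7 gcr2D against TEF1p-Tye7, and 1.97% and 0.656% in TEF1p-Tye7 against Tye7. TEF1p-Tye7 gcr2D against TEF1p-Tye7, which differ in GCR2, had 19 and 10 insertions in RIO1-GCY1, a ratio of 1.90 (0.843 to 4.59), and 7 and 5 in EMP46-GAL2, a ratio of 1.40 (0.383 to 5.61). TEF1p-Tye7 against Tye7, which differ in promoter and in TYE7, had 0 and 10 in TRP1-GAL3, with an unadjusted p of 0.0366 and an adjusted p of 0.298 by Fisher's exact test. Both intervals for GCR2 include equal shares and also changes of more than 4-fold, so these depths leave the size of any difference wide.

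Cbf1 bHLH against Cbf1 bHLH-ZIP, which differ by the zipper, had 22 and 1 insertions in GAL7-GAL10, a ratio of 6.88 (1.11 to 284), 20 and 1 in RIO1-GCY1, a ratio of 6.25 (1.000 to 259), and 38 and 5 in EMP46-GAL2, a ratio of 2.38 (0.933 to 7.73). The adjusted p values were 0.101, 0.137 and 0.179 by Fisher's exact test, so none was called. The share was higher without the zipper in all 8 member regions, 5 of them on counts too low to test. Most regions went this way, with a median log2 ratio of 0.96 over the member regions tested or not and 1.02 over all regions tested. Log2 ratios add 1 insertion to each count, and on them 1 of the 8 member regions lay below 0, GAL10-GAL1 at -0.68. Of all regions tested 25.4% lay below 0. In all 8.67% of the regions tested were called higher and 7.06% lower. Over regions bound in neither library the log2 ratios moved by -1.52, and the median of the galactose regions was -0.56 beside -0.50 over all regions. The sign of the median turned. Under this scaling 0 of all regions were called higher and 134 lower, with 0 member regions among them. The log2 ratios of GAL7-GAL10, 1.85, and RIO1-GCY1, 1.71, exceeded the shift by little. Each of the 2 rests on 1 insertion in Cbf1 bHLH-ZIP. Cbf1 bHLH-ZIP with Tye7 basic against Cbf1 bHLH-ZIP had 8 and 5 insertions in EMP46-GAL2, a ratio of 1.78 (0.512 to 6.90), where the effects of the basic region and of BY4742 cannot be told apart. Over all regions 8.88% were called higher and 13.1% lower in that pair. Cbf1 bHLH-ZIP against Cbf1, with 1.40% and 1.64% of all regions called, had 5 and 21 in EMP46-GAL2, a ratio of 0.805 (0.237 to 2.19), and 1 and 9 in RIO1-GCY1. No member region had enough insertions to test in the NPAS2 pair, where 59.7% of the 62 regions tested were called higher with the Cbf1 ZIP and 4.84% lower.

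Insertions inside the member genes, which the choice of regions did not use, were sparser than those upstream. Summed over the 12 libraries, GCY1 had 20.3 insertions per kb within the gene and 278 per kb upstream. GAL7 had 10.0 and 117, GAL80 3.06 and 109, GAL2 25.5 and 127, PGM2 4.68 and 69.0, GAL3 6.41 and 44.6, GAL1 6.31 and 37.3, GAL10 17.2 and 37.3, and GAL4 6.05 and 12.5. The upstream region was denser for 9 of 9 members, as it was for 4004 of 4303 genes, or 93.1%. The deposited background covers intergenic regions, so the counts within genes have none beside them.

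GAL2 and GAL10 had the most insertions within the gene, 44 and 36, with up to 11 for GAL2 in Cbf1 bHLH and up to 9 for GAL10 in Gcr2. GAL10 was denser within the gene than upstream in 4 libraries and denser upstream in 6, so the summed order did not hold in each library. GCY1 and GAL7 were denser upstream in every library that had an insertion in either place, 11 and 10 libraries. In Cst6 the GCY1 gene itself had 1 insertion beside the 128 upstream.

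**Figure D5:**
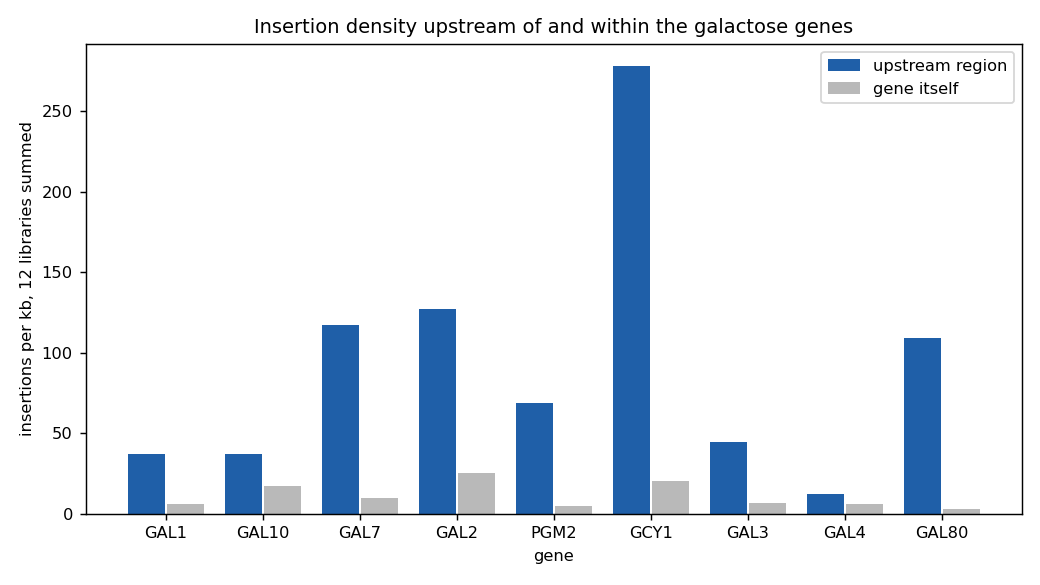
Insertions per kb (vertical axis), summed over the 12 libraries, in the region upstream of each of the 9 genes and in the gene itself. GAL1 and GAL10 share 1 upstream region, and the highest bar is the region upstream of GCY1 at 278 per kb.

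In GAL7-GAL10 the 85 insertions of all libraries occupied 72 distinct positions, with a median of 370 bp from the GAL7 end and the fullest 100 bp at 300 to 399 bp. In EMP46-GAL2 the median was 570 bp from the GAL2 end over 122 insertions, and in PGM2-YKU80 it was 415 bp over 48. In TRP1-GAL3 the median was 185 bp over 41 insertions, and the 14 insertions of Cst6 lay between 55 and 265 bp from the GAL3 end. In SUR7-GAL80 the median was 195 bp over 31 insertions.

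Other genes linked to the galactose response were listed by hand, and 16 regions upstream of them were read in the same way. A region listed here may also lie upstream of its other flanking gene, as RIO1-GCY1 does. A call at such a region thus does not tell which of the 2 genes it belongs to. The calls of these regions were not tried with nearby positions merged or with shares over unbound regions. In Cbf1, 5 of the 14 such regions tested were called lower, beside 31.7% of all regions. In Cst6 it was 5 of 13 beside 52.5%, in Gcr1 2 of 12 beside 5.40% and in Gcr2 1 of 12 beside 7.04%. In Tye7 against Cbf1, 3 of 8 were called higher, beside 27.0% of all regions. FUR4, MTH1 and PCL10 are known Gal4 targets. FUR4, the uracil permease gene downstream of GAL1, had 0 insertions in GAL1-FUR4 in Cbf1 against 0.0528% of background, and was called lower at an adjusted p of 8.64e-05 by Fisher's exact test. MTH1-RNH202, upstream of MTH1, a regulator of glucose transporter genes, was lower in Cbf1 with 0.0147% against 0.0830% in background and in Gcr1 with 3 insertions and a ratio of 0.215 (0.0428 to 0.671). It was higher in Tye7 than in Cbf1, with 12 against 4 insertions and a ratio of 5.09 (1.54 to 21.6). PCL10, which encodes a cyclin of the Pho85 kinase, had no call.

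Of the genes of glucose repression, the regions upstream of the corepressor genes CYC8 and TUP1 had opposite calls in the Cst6 library. In that library 7.81% of all regions were called higher and 52.5% lower, so a lower call was the common case. CYC8-RAD16, upstream of CYC8, was called higher in Cst6 with 88 insertions, 0.233% against 0.0873% in background, a ratio of 2.67 (1.85 to 3.88) at an adjusted p of 4.63e-07 by Fisher's exact test. TUP1-CSM1, upstream of TUP1, was called lower there with 2 insertions, 0.00529% against 0.0948%, a ratio of 0.0558 (0.00659 to 0.212), and was lower also in Cbf1, Gcr1 and Gcr2. CYC8-RAD16 was higher in TEF1p-Tye7 gcr2D than in TEF1p-Tye7 too, with 12 against 2 insertions, a ratio of 6.01 (1.34 to 55.3). NRG1-HEM13, upstream of the repressor gene NRG1, was lower in Cbf1 with 0.0295% against 0.127% and in Cst6 with 0.0476% against 0.115%. Both NRG1-HEM13, with 17 against 8, and TUP1-CSM1, with 17 against 5, were higher in Tye7 than in Cbf1, and NRG1-HEM13 was higher in Cbf1 bHLH than in Cbf1 bHLH-ZIP, with 40 against 2 insertions, a ratio of 6.25 (1.62 to 53.4).

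Of the Snf1 kinase genes, JIP4-SNF1, upstream of SNF1, was called higher in TEF1p-Tye7 gcr2D with 18 insertions, 0.237% against 0.0785%, a ratio of 3.02 (1.66 to 5.25) at an adjusted p of 0.0104 by Fisher's exact test. The share called higher over all regions of that library was 2.33%. The same region was lower in Cst6, with 0.0106% against 0.0595%, and so was REG1-RAD28, upstream of the phosphatase subunit gene REG1, with 0 insertions against 0.0186% of background. SPE2-GAL11, upstream of the Mediator subunit gene GAL11, was lower in Cbf1 with 1 insertion, a ratio of 0.0596 (0.00147 to 0.351), and in Cst6 with 2, a ratio of 0.105 (0.0122 to 0.420).

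The highest ratio of the list was at NAR1-LAP3, upstream of the protease gene LAP3, in NPAS2 bHLH with Cbf1 ZIP. That library had 19 insertions there, 0.665% against 0.0392% in background, a ratio of 16.9 (8.86 to 31.8) at an adjusted p of 4.02e-13 by Fisher's exact test, while NPAS2 bHLH had 0. In that library 2.66% of all regions were called higher, and the 8 member regions together held 1 insertion. Merging positions within 5 bp left 41.6% of its intergenic insertions, and whether the call at NAR1-LAP3 holds after merging was not tested.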

How the data were processed

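Calling cards were read from 12 libraries of S. cerevisiae genomic DNA. Per the labels' protocols, DNA was cut in 3 digests, circularised and amplified outward from Ty5. Novoalign is named in the submitters' processing notes. No source used here names the genome build. The authors deposited, for each library, a list of insertions with read counts and a table of counts of insertions in 4532 intergenic regions for the library and for a background set, with a Poisson p-value by the authors per region. Nor do these sources say how the background sets were made.

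Insertions were recounted from the lists and equalled the tables. Shares, exact (Clopper-Pearson, or conditional for ratios) 95% intervals and two-sided Fisher's exact tests with Benjamini-Hochberg adjustment were computed with Python 3.11.15 and scipy 1.17.1, over every region holding 10 or more insertions in the pair. A call needed an adjusted p below 0.05 and a 2-fold difference after adding 1 insertion to both counts, as was also done for log2 ratios. A fold against 0 insertions was computed with 3 insertions in place of 0 and takes the other count as exact, so the exact interval can allow a smaller fold. The tests were checked on simulated counts of insertions drawn independently of each other. That check does not cover repeated or nearby positions such as those in the lists. All 9 members were described. Of the other galactose-related genes those with a call were named, and the 3 regions most like the most used member region were named by Pearson correlation. Names were matched to R64 for 4656 of 4657 identifiers, and no coordinate was taken from it. The members and lists were chosen with earlier results of these data known. Sequence motifs were not analysed here. Alternatives to the low-count filter, region width, denominator, scaling, reads per insertion, nearby positions, runs, test and ratio minimum were tried.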

Additional observations from a re-analysis of the deposited data

How the results depend on the processing

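Against background, 1 member region was called higher and 10 lower, and between libraries 4 were called higher and 0 lower. With regions tested from 1 insertion, 2 were higher between libraries. With all insertions as the total, 5 were lower than background and 2 higher between libraries. With shares over unbound regions, 2 were higher and 0 lower than background, and 1 was higher and 1 lower between libraries. The added calls were RIO1-GCY1 in TEF1p-Tye7 gcr2D and EMP46-GAL2 in Tye7 against Cbf1. Over all regions, 68 were then higher and 1 lower in that library, and 31 higher and 225 lower in that pair. With insertions of at least 5 reads, 5 were lower than background. With positions within 5 bp merged, 0 were higher and 0 lower than background and 0 higher between libraries. With the largest run only, 3 were lower than background and 0 higher between libraries. When every run had to lie on the called side of the background share, 1 was higher and 10 lower than background. Between libraries the rule was stricter, as every run of 1 library had to lie beyond every run of the other, and 0 were higher. The causes were not tested. The widened regions and no minimum ratio kept each of the 4 counts within 1.5 times, as did leaving out both NPAS2 libraries, chosen after seeing the data. The test of the authors, which gives higher calls against background only, kept 1, and the other background set, also chosen after seeing the data and run against background only, gave 1 higher and 13 lower. The call of RIO1-GCY1 in Cst6 held under each of these except the merging of positions.

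Of the 96 shares, merging moved 16 beyond their interval, the largest run 14, reads of at least 5 moved 9, all insertions as the total 1 and the widened regions 0. In the NPAS2 libraries 3 insertions are 0.105% and 0.124% of the total, above most member shares in background. No paired analysis was possible because each group has 1 library, so that any 2 groups share fewer than 2 replicate numbers.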

Other observations

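The regions downstream of the member genes, which are upstream of no member unless shared, were read beside them as values only. GAL2-SRL2, a region of 459 bp behind GAL2, held 10 insertions over the 12 libraries beside 122 in EMP46-GAL2, of 963 bp, in front of it. Background sets A and B held 11 and 10 there beside 73 and 47. GCY1-PFY1, a region of 247 bp behind GCY1, held 7 beside 242 in RIO1-GCY1, of 869 bp, and none of the 7 was in Cst6. The background sets held 5 and 4 beside 84 and 72. GAL80-RSE1, a region of 1320 bp behind GAL80, held 5 beside 31 in SUR7-GAL80, which has 285 bp. The background sets held 6 and 7 beside 29 and 14, so the order at these genes was already present in the background. Behind GAL7, PGM2 and GAL4, 39, 27 and 8 insertions lay beside 85, 48 and 27 in front. The contrast was absent at GAL3, with 48 insertions in GAL3-SNQ2 behind the gene and 41 in TRP1-GAL3 in front of it, and GAL1-FUR4, behind GAL1 and upstream of FUR4, held 74 beside 25 in GAL10-GAL1. GAL7-GAL10, behind GAL10 and upstream of GAL7, held 85 beside the same 25. No test was made of these counts, which do not allow for the lengths of the regions.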
